A study of Mus musculus with 8 samples.

Results

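Doublecortin and the growth cone cytoskeleton of immature neurons were followed through 10 genes: Dcx, Dclk1, Dpysl3, Dpysl5, Tubb3, Tubb2b, Stmn1, Stmn2, Map1b and Gap43. They were chosen by name, as a list, with earlier results of these data known. All 10 were found among the 24421 genes counted. RNA came from the hippocampus of C57BL/6J mice labelled wildtype and male. The IUGR animals (intrauterine growth retardation) were offspring of dams given dexamethasone, a synthetic glucocorticoid, by intraperitoneal injection at 1 mg/kg daily for 5 days from 14.5 dpc, and the NS animals were offspring of dams given the same volume of normal saline. Hippocampi were taken at week 8 and at postnatal day 3, so that the groups were IUGR and NS at each age, with 2 libraries per group and 8 in all. The dam was treated in this model and not the pup, and whether each library is an animal of its own, or which litter it is from, is not stated in the labels. What the p-values below weigh is thus the spread among these 8 libraries, and at week 8 that spread may be technical. At postnatal day 3 it may be technical only in part, because sex-linked RNA differed between the replicates of each group, as given below.

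A young neuron migrates and extends its axon by remodelling microtubules, polymers of tubulin that run into the growth cone at the axon tip. Doublecortin proteins bind and stabilise microtubules, collapsin response mediator proteins relay guidance signals to the cytoskeleton, stathmins bind free tubulin and favour microtubule disassembly, and GAP-43 works at the growth cone membrane. In the hippocampus, doublecortin is widely used to mark newborn granule neurons of the dentate gyrus, which go on being made after birth.

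Promoter sequences of 5 of the 10 genes (Dcx, Dclk1, Dpysl5, Tubb3 and Map1b) were present in the RefSeq promoter table used here (GRCm38.p6). They are shown for Dcx and Dpysl5, the members of these 5 with the largest change between ages, and for Dclk1, the one with the smallest. Each line runs 5′ to 3′ on the strand of the gene and ends at the base before the annotated start. For Dcx only the 158 bases ahead of both the RefSeq and the GENCODE start are printed. Capitals mark ACAAT or its complement ATTGT, the core letters that SOX factors recognise.
Dcx, chrX:143933312-143933469, minus strand: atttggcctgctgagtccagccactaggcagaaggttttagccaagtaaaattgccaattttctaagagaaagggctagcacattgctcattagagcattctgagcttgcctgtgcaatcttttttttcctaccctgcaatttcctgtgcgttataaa
Dpysl5, chr5:30711314-30711563, plus strand: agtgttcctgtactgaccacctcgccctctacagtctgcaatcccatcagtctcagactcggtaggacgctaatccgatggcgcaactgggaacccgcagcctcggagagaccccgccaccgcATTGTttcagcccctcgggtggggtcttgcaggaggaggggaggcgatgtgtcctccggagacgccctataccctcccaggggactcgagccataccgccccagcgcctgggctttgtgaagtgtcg
Dclk1, chr3:55242114-55242363, plus strand: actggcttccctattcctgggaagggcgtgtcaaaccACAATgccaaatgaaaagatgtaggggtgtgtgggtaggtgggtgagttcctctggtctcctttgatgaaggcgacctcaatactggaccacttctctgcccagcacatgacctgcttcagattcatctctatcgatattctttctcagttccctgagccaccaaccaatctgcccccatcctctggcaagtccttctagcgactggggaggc
Over the full 250 bases before the RefSeq start, ACAAT on either strand occurred 3 times for Tubb3, once each for Dclk1 and Dpysl5, and not for Dcx or Map1b. It was present in 28.3% of the 27025 promoters of the table. The E-box CANNTG, recognised by basic helix-loop-helix factors, was found on either strand for Dclk1, Dpysl5 and Map1b, and in 66.0% of all promoters. The form CAGATG, which is itself a CANNTG and is bound by NeuroD factors, was found for Map1b only among these 5, and in 14.5% of all promoters. These matches describe letters in a window and not binding.

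RefSeq lists a second start of Dclk1 at position 55461728 of chromosome 3, inside the gene, beside that at 55242364. In mouse brain, shorter Dclk1 proteins with the kinase part are known beside the full doublecortin-like form, and the gene counts used here do not separate them. Exons of Dclk1 also overlap exons of Gm42609 and Gm21954 on the other strand, and exons of Stmn1 overlap Gm23634 on the same strand. Because the strandedness of the counting is not given in the sources used here, reads of such partners cannot be told apart from those of Dclk1. Tubb2b and its close relative Tubb2a shared sequence. Of the 100-base windows of the longest coding transcript of Tubb2b, 27.7% occurred exactly in transcripts of another gene, nearly all in Tubb2a. For Stmn1 the share was 26.1%, all in Gm11223. The counts of Tubb2b and Stmn1 are uncertain for this reason, by an amount that was not measured. The other 8 members had no such window.

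Library totals ran from 13030277 to 18993050 counts, and each member had at least 263 counts in each library. The libraries differed in ways that the groups do not describe. At week 8 the differences between replicate 2 and replicate 1 correlated across tested genes at 0.805 between IUGR and NS, against -0.062 at postnatal day 3. At postnatal day 3 both libraries numbered 2 had high counts of Xist, the RNA of the inactive X chromosome: 81 and 5130 counts in IUGR and 4 and 4998 in NS (replicates 1 and 2), although all animals are labelled male. In the same order, 4 Y-linked genes summed to 5364 and 74 counts in IUGR and 3783 and 34 in NS. At week 8 Xist had 50 and 1 counts in IUGR and 12 and 7 in NS. There the Y-linked genes summed to 3443 and 2023 counts in IUGR and 3936 and 2538 in NS. At week 8 the libraries numbered 2 lacked Rpph1, the RNA of RNase P, with 959735 and 2 counts in IUGR and 1002307 and 0 in NS. Dcx is X-linked, and the part of the Xist difference in its values was not tested. Nor was its part in the comparisons between ages. Marker genes of hippocampal fields and granule cells had no gene at 0 in any library, with summed levels of 449 to 937 CPM at week 8 and 526 to 693 CPM at postnatal day 3. Of the latter, Neurod6 alone read 364 to 544 CPM, while Spink8 read 0.457 to 0.937 CPM. Genes of thalamus and habenula summed to 241 and 532 CPM in IUGR at postnatal day 3, against 320 and 258 CPM in NS. The part of such tissue in the members' values was not tested.

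Levels are given as CPM, the deposited count scaled to the library total, which included Rpph1. Which libraries overlap in CPM, and the sign of small differences, were not tested without Rpph1 in the totals. To compare genes with each other, CPM was divided by the deposited gene length in kilobases (RPKM). In the IUGR libraries of week 8 the order of mean RPKM was Stmn1 (256), Tubb2b (199), Stmn2 (176), Tubb3 (137), Map1b (105), Gap43 (98.1), Dclk1 (53.4), Dpysl3 (10.7), Dpysl5 (6.01) and Dcx (2.89). The NS libraries of week 8 had the same order, with Stmn1 at 237 RPKM and Dcx at 2.47 RPKM. Among the 6 genes from Stmn1 to Gap43, neighbours in this order overlapped between libraries, except Tubb3 and Map1b in IUGR. The other 4 stood apart from their neighbours. At postnatal day 3 the order was Stmn1, Tubb2b, Tubb3, Stmn2, Gap43, Dpysl3, Map1b, Dcx, Dpysl5 and Dclk1 in both groups. There Stmn1 had 1699 RPKM in IUGR and 1567 RPKM in NS, and Dclk1 63.3 and 62.0 RPKM. Dcx and Dpysl5 overlapped in NS, and no other neighbours did in either group. Dclk1 was thus the lowest member per length in the neonate and the seventh of the 10 in the adult.

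**Figure D1:**
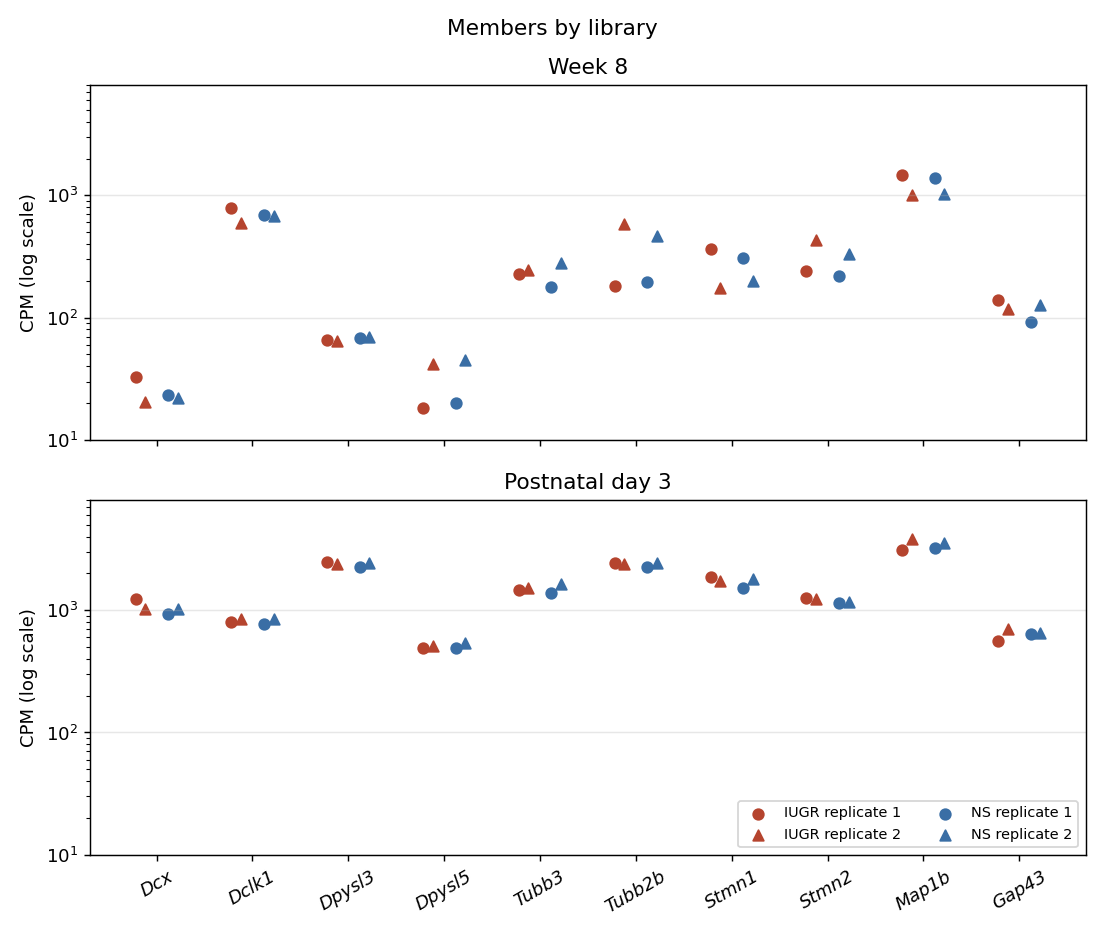
CPM of the 10 genes in each library on a log axis, week 8 above and postnatal day 3 below, with IUGR in red and NS in blue, circles for replicate 1 and triangles for replicate 2. At week 8 Dcx, Dpysl3 and Dpysl5 lie below 100 CPM, while Dclk1 stays near its neonatal level. Tubb2b and Dpysl5 are higher in both libraries numbered 2.

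The comparison of week 8 with postnatal day 3 set the adult hippocampus against the neonatal one. Of the 10 members, 9 fell and Dclk1 did not pass the test, in IUGR and in NS alike. The fits called 16.8% of the 15999 tested genes in IUGR (7.48% lower and 9.34% higher) and 14.1% in NS (6.44% lower and 7.7% higher). The median log2 fold change of the members was -2.56 in IUGR, against 0.02 over all tested genes, and -2.69 in NS, against 0.04. Together the 10 genes took 0.353 and 0.329% of counts at week 8 in IUGR, against 1.57 and 1.62% at postnatal day 3. In NS they took 0.316 and 0.323% at week 8, against 1.46 and 1.61%. In bulk tissue, fewer cells of a type and less RNA per cell cannot be told apart.

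Dcx, the microtubule-binding protein of migrating neurons (X, 143855842 to 143933311, minus strand, in the GENCODE M21 annotation of GRCm38), read 32.7 and 20.2 CPM at week 8 in IUGR, against 1243 and 1023 CPM at postnatal day 3. In NS, Dcx read 23.2 and 22.1 CPM, against 923 and 1028 CPM. The adult level was 2.33% of the neonatal one in IUGR and 2.32% in NS. The log2 fold change was -5.32 ± 0.35 (SE, adjusted p = 0.00188, edgeR quasi-likelihood test) in IUGR and -5.40 ± 0.35 (0.00219) in NS, the largest change of any member. Its relative Dclk1, which joins a doublecortin-like part to a kinase (chromosome 3, 55242364 to 55539068, plus strand), read 793 and 595 CPM at week 8 in IUGR, against 795 and 850 CPM at postnatal day 3. In NS, Dclk1 read 686 and 680 CPM, against 767 and 843 CPM. In CPM, all week 8 libraries were below all postnatal day 3 libraries of the same group, as for 37.9% of tested genes in IUGR and 32.6% in NS. In IUGR the closest values were 792.8 CPM at week 8 and 794.7 CPM at postnatal day 3, both in replicate 1. Rpph1 took 64900 and 49480 CPM of the same libraries, and the order without Rpph1 in the totals was not tested. The change of Dclk1 did not pass (-0.14 ± 0.24, adjusted p = 0.714, in IUGR and -0.21 ± 0.24, 0.586, in NS, edgeR). Its 95% interval, -0.71 to 0.43 in IUGR and -0.78 to 0.37 in NS, held the log2 fold change of no other member.

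Dpysl3 kept 2.66% of its neonatal level in IUGR and 2.94% in NS, and Dpysl5 6.03% and 6.37%. Dpysl3, also called CRMP4 (chromosome 18, 43320984 to 43438286, minus strand), read 65.3 and 64.4 CPM at week 8 in IUGR, against 2474 and 2396 CPM at postnatal day 3. In NS, Dpysl3 read 68.2 and 69.1 CPM, against 2241 and 2433 CPM. Replicates of each group lay within 1.09-fold of each other at both ages. Its log2 fold change was -5.13 ± 0.27 (edgeR adjusted p = 0.00121) in IUGR and -5.06 ± 0.27 (0.00163) in NS. Dpysl5, or CRMP5 (chromosome 5, 30711564 to 30799375, plus strand), read 18.3 and 42.1 CPM at week 8 in IUGR, against 495 and 507 CPM at postnatal day 3. In NS, Dpysl5 read 20.2 and 45.2 CPM, against 491 and 536 CPM. It fell, with a log2 fold change of -3.95 ± 0.55 in IUGR (edgeR adjusted p = 0.00859) and -3.94 ± 0.55 in NS (0.00939). In both groups replicate 2 at week 8 was more than 2-fold above replicate 1.

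The tubulin and stathmin genes kept a larger share of their neonatal level. Tubb3, the beta-tubulin of neurons (chromosome 8, 123411424 to 123422015, plus strand), read 226 and 246 CPM at week 8 in IUGR, against 1476 and 1527 CPM at postnatal day 3. In NS, Tubb3 read 177 and 282 CPM, against 1395 and 1623 CPM. Its adult level was 15.7% of the neonatal one in IUGR and 15.2% in NS, a log2 fold change of -2.56 ± 0.31 (edgeR adjusted p = 0.00592) and -2.69 ± 0.31 (0.00666). Tubb2b, a beta-tubulin of the developing brain (chromosome 13, 34126748 to 34130466, minus strand), read 180 and 585 CPM at week 8 in IUGR, against 2444 and 2392 CPM at postnatal day 3. In NS, Tubb2b read 194 and 464 CPM, against 2251 and 2429 CPM. Its change of -2.55 ± 0.65 in IUGR (edgeR adjusted p = 0.0423) and -2.80 ± 0.66 in NS (0.0381) had the largest standard error of the 10.

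Stmn1, stathmin itself (chromosome 4, 134468320 to 134473843, plus strand), read 367 and 175 CPM at week 8 in IUGR, against 1863 and 1740 CPM at postnatal day 3. In NS, Stmn1 read 305 and 199 CPM, against 1525 and 1796 CPM. It fell, with a log2 fold change of -2.63 ± 0.43 in IUGR (edgeR adjusted p = 0.0122) and -2.70 ± 0.43 in NS (0.0132). Stmn2, the membrane-bound stathmin of growth cones (chromosome 3, 8509360 to 8561606, plus strand), read 243 and 427 CPM at week 8 in IUGR, against 1248 and 1226 CPM at postnatal day 3. In NS, Stmn2 read 220 and 331 CPM, against 1155 and 1177 CPM. Here 27.1% of the neonatal level remained in IUGR and 23.6% in NS, a log2 fold change of -1.78 ± 0.36 (edgeR adjusted p = 0.0219) and -2.05 ± 0.36 (0.0177). At week 8 Stmn1 was higher in replicate 1 and Stmn2 in replicate 2, in both groups.

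Map1b, a microtubule-associated protein of growing axons (chromosome 13, 99421446 to 99516540, minus strand), read 1464 and 1015 CPM at week 8 in IUGR, against 3115 and 3846 CPM at postnatal day 3. In NS, Map1b read 1375 and 1017 CPM, against 3236 and 3572 CPM. This was the smallest change that passed, at -1.38 ± 0.33 in IUGR (edgeR adjusted p = 0.0336) and -1.48 ± 0.33 in NS (0.0315). Gap43, the growth cone phosphoprotein (chromosome 16, 42248442 to 42340651, minus strand), read 138 and 117 CPM at week 8 in IUGR, against 565 and 699 CPM at postnatal day 3. In NS, Gap43 read 91.8 and 126 CPM, against 642 and 647 CPM. It fell, with a log2 fold change of -2.20 ± 0.26 in IUGR (edgeR adjusted p = 0.00579) and -2.53 ± 0.27 in NS (0.00535).

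**Figure D2:**
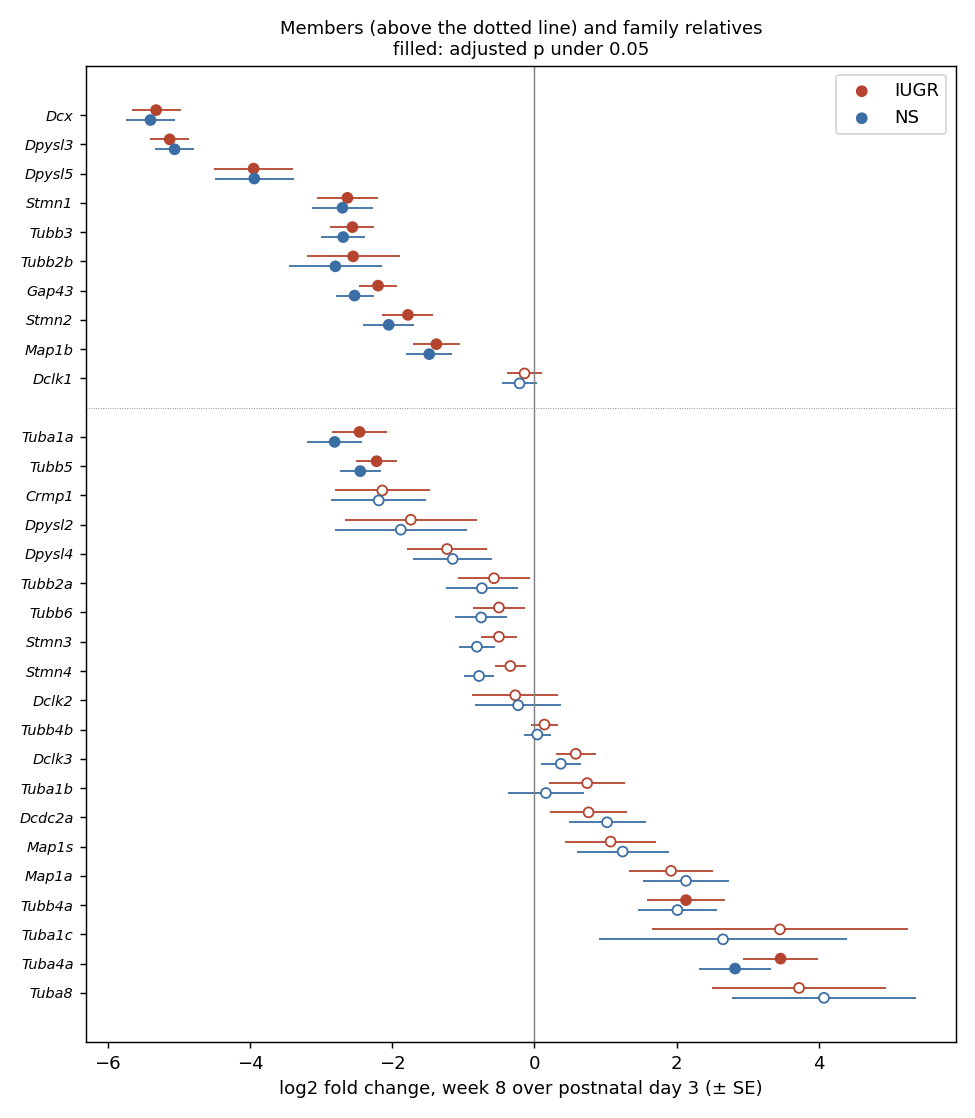
Log2 fold change of week 8 over postnatal day 3 (horizontal, ± SE) in IUGR (red) and NS (blue) for the 10 members, above the dotted line, and 20 relatives of the same families, below it. Filled points have an adjusted p under 0.05. The members other than Dclk1 are filled and lie between -5.40 and -1.38, while the relatives lie on both sides of 0.

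The 9 members were lower at week 8 with either set of week 8 libraries. With both week 8 libraries numbered 1 left out, the median log2 fold change of the members was -2.42 in IUGR and -2.36 in NS. With both numbered 2 left out, it was -2.43 in IUGR and -2.93 in NS. Each week 8 group then held 1 library, so these fits had no week 8 spread. Only effect sizes are given for them. The number of calls, over all genes as well as the members, depended on single postnatal day 3 libraries. Without either IUGR library of that age 2 members were called in IUGR (Dcx and Dpysl3) and 6 in NS, and over all genes 92 or 157 were called in IUGR and 822 or 824 in NS. Without either NS library of that age 6 were called in IUGR and 2 in NS (again Dcx and Dpysl3), and over all genes 1040 or 1054 in IUGR and 69 or 51 in NS. Without 1 week 8 library at a time, 7 to 9 members were called in IUGR and 8 or 9 in NS. RNA of other cell types differed between the ages too. Summed over 8 genes, myelin markers read 4382 and 5590 CPM at week 8 in IUGR, against 101 to 116 CPM at postnatal day 3. In NS they read 5228 and 5528 CPM, against 135 to 138 CPM. The 15 pan-neuronal genes summed to 6980 and 18050 CPM at week 8 in IUGR, against 2342 to 2821 CPM, and to 6222 and 19030 CPM at week 8 in NS, against 2721 to 2842 CPM. Astrocyte genes summed to 5849 and 6124 CPM at week 8 in IUGR, against 1277 to 1323 CPM, and to 6053 and 6437 CPM at week 8 in NS, against 1269 to 1655 CPM. Of 10 cell cycle genes 10 fell in IUGR and 9 in NS. The part of these cell types in the members' change was not tested.

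Relatives of the same families did not share one direction. Of 20 family relatives, 2 rose and 2 fell in IUGR, while 1 rose and 2 fell in NS (median log2 fold change -0.07 and -0.10). Tuba1a, the alpha-tubulin of developing neurons, fell, with a log2 fold change of -2.46 in IUGR (edgeR adjusted p = 0.0106) and -2.81 in NS (0.00905). Tubb5, a widely expressed beta-tubulin, fell too (-2.22 in IUGR, 0.00695, and -2.45 in NS, 0.00688). Tuba4a rose, with 234 and 525 CPM at week 8 in IUGR, against 30.6 and 43.7 CPM at postnatal day 3. In NS, Tuba4a had 214 and 420 CPM, against 48.4 and 43.5 CPM (log2 fold change 3.46 and 2.82 in IUGR and NS, edgeR adjusted p = 0.0101 and 0.0186). Tuba1c had 3.45 in IUGR and 2.65 in NS but did not pass (0.224 and 0.334), and its week 8 libraries ranged from 9.87 to 443 CPM. Tubb2a, the relative that shares sequence with Tubb2b, had 460 and 1049 CPM at week 8 in IUGR, against 1087 and 1328 CPM. In NS, Tubb2a had 415 and 924 CPM, against 1155 and 1134 CPM, and it did not pass in either (-0.57, adjusted p = 0.465, and -0.74, 0.356). Dclk2, the relative of Dclk1, did not pass either (-0.27 in IUGR and -0.23 in NS).

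Among 28 partners in the growth cone and in migration, 1 rose and 6 fell in IUGR, and 1 rose and 5 fell in NS. The lowest were Marcksl1, a membrane-bound regulator of actin (-2.99, edgeR adjusted p = 0.0042, in IUGR and -3.34, 0.00387, in NS), and Tmsb10, which binds actin monomers (-3.18, 0.00988, and -2.45, 0.0207). Nde1, a partner of dynein and LIS1, rose (1.15, 0.0181, in IUGR and 1.05, 0.0271, in NS). Cdk5r2, an activator of Cdk5, had 2.12 and 2.33 but did not pass (0.304 and 0.28). Of 18 genes of the mature neuronal cytoskeleton, 5 rose and 1 fell in IUGR, and 4 rose and 1 fell in NS. Nefh, the heavy neurofilament, rose by 2.73 in IUGR (0.0303) and 3.18 in NS (0.0241). Mast3 did not pass (3.25, 0.0663, and 3.14, 0.0788), nor did Map6, which stabilises microtubules (-1.26, 0.0816, and -1.14, 0.111). Mapt, which encodes tau, fell (-1.94 in IUGR, 0.00785, and -1.87 in NS, 0.00931).

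Of 16 immature neuron nuclear and related genes, 7 fell in IUGR and 6 in NS, and 0 rose. Nrep fell, with a log2 fold change of -4.75 in IUGR (edgeR adjusted p = 0.00314) and -4.65 in NS (0.00354). Sox11, a transcription factor of young neurons, fell too (-3.97, 0.00288, and -3.83, 0.00333). Neurod1 and Neurod2 did not pass and had 0.74 and 1.46 in IUGR, and 0.35 and 1.45 in NS. Their week 8 libraries numbered 2 were 4.10 to 5.84-fold above those numbered 1. Of 15 pan-neuronal genes, 6 rose and 0 fell in each group. Camk2a, a synaptic kinase, rose by 5.69 in IUGR (0.0307) and 5.10 in NS (0.0438), and Slc17a7, the vesicular glutamate transporter, by 4.37 (0.0242) and 3.86 (0.0363). Elavl3 and Uchl1 did not pass (-0.49 and 0.26 in IUGR, -0.32 and -0.04 in NS).

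The comparison of IUGR with NS at postnatal day 3 asked whether prenatal dexamethasone altered this growth program in the neonate. No change was detected: 0 of 10 members passed, as did 0.0% of all tested genes. None of the members had an unadjusted p under 0.05, while 96 of 15999 genes did, and 0 members were called by DESeq2 or by limma voom. The log2 fold changes of IUGR over NS ran from -0.04 for Dpysl5 to 0.22 for Dcx, with a median of 0.04 against 0.01 over all genes. Dcx, at 1243 and 1023 CPM in IUGR against 923 and 1028 CPM in NS, overlapped between groups and had 0.22 ± 0.29 (SE, edgeR adjusted p = 1). Stmn1 was next, at 0.12 ± 0.40, with IUGR libraries at 1863 and 1740 CPM and NS libraries at 1525 and 1796 CPM. Stmn2 was the 1 member whose libraries did not overlap, with 1248 and 1226 CPM in IUGR above 1155 and 1177 CPM in NS. Of all tested genes 36.3% did not overlap at this age, 19.7% with IUGR above and 16.6% with IUGR below.

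The fit of the 4 postnatal day 3 libraries alone gave narrower intervals, since these replicates lay closer together. In that fit the 95% intervals of all 10 members lay between -0.34 and 0.55 on the log2 scale, and that of Dcx from -0.12 to 0.55 (edgeR adjusted p = 0.884). Over all genes edgeR called 0 in these 4 libraries and DESeq2 60, of which 58 were lower in IUGR and 0 were members. Within replicate 1, 8 members were higher in IUGR and 2 lower, with a median difference in log2(CPM + 1) of 0.10. Within replicate 2, 4 were higher and 6 lower, with a median of -0.01. Dclk1 and Stmn2 had the same sign in both. Markers of other tissue moved beside these values, with 10 of 10 genes of meninges and fibroblasts and 9 of 9 choroid plexus genes lower in IUGR, though 0 passed the test. The first summed to 496 to 552 CPM in IUGR, against 1115 to 1323 CPM in NS. The second summed to 3236 and 459 CPM in IUGR (replicates 1 and 2), against 95.4 and 6298 CPM in NS. Within replicate 1 the choroid plexus sum was thus higher in IUGR. The part of these tissues in the members' values was not tested.

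At week 8 the same comparison asked whether a difference was present in the adult. Again 0 of 10 members passed, as did 0.0% of all tested genes, and none had an unadjusted p under 0.05 (161 of 15999 genes did). The 3 tools named above called 0 members. Log2 fold changes of IUGR over NS ran from -0.04 to 0.36, with a median of 0.16 against 0.02 over all genes. Stmn2, with 243 and 427 CPM in IUGR against 220 and 331 CPM in NS, had 0.36 ± 0.35 (SE, edgeR adjusted p = 1). Dcx, with 32.7 and 20.2 CPM against 23.2 and 22.1 CPM, had 0.30 ± 0.29. IUGR replicate 1 was the highest of the 4 for Dcx and IUGR replicate 2 the lowest. Gap43, with 138 and 117 CPM in IUGR against 91.8 and 126 CPM in NS, had 0.30 ± 0.25. Dpysl3 was the 1 member without overlap in CPM, with 65.3 and 64.4 CPM in IUGR below 68.2 and 69.1 CPM in NS. Its log2 fold change was -0.01 ± 0.23. Rpph1 took 64900 and 76920 CPM of the IUGR and NS libraries numbered 1, and those numbered 2 lacked it. Overlap of Dpysl3 without Rpph1 in the totals was not tested. Of all tested genes 13.1% did not overlap at this age, 9.01% with IUGR below and 4.08% with IUGR above.

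The direction at week 8 depended on the replicate number. Within replicate 1, 7 members were higher in IUGR and 3 lower (median difference in log2(CPM + 1) of 0.18), and within replicate 2, 2 were higher and 8 lower (-0.10). Dpysl3, Dpysl5 and Stmn2 kept their sign. Stmn2 was higher in IUGR by 0.14 and 0.37 within replicates 1 and 2. The fit of the week 8 libraries alone allowed changes from -1.69 to 2.25 within its 95% intervals. With the replicate number added to that fit, the intervals lay between -0.51 and 0.79, though the labels do not state a pairing. At this age 9 of 9 endothelial and mural genes were lower in IUGR, 7 of them at an unadjusted p under 0.05, with 0 past the adjusted threshold. So were 10 of 10 genes of meninges and fibroblasts (median log2 fold change -0.84) and 11 of 11 genes of interneurons and olfactory neuroblasts (-0.23), with 0 at an unadjusted p under 0.05, while 8 of the 10 members were higher in IUGR. In replicates 1 and 2, genes of meninges and fibroblasts summed to 1203 and 723 CPM in IUGR, against 2543 and 559 CPM in NS. Within replicate 2 that sum was thus higher in IUGR. Choroid plexus genes summed to 70.5 to 76.6 CPM in IUGR, against 87.3 to 6772 CPM in NS. Their part in the members' values was not tested.

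**Figure D3:**
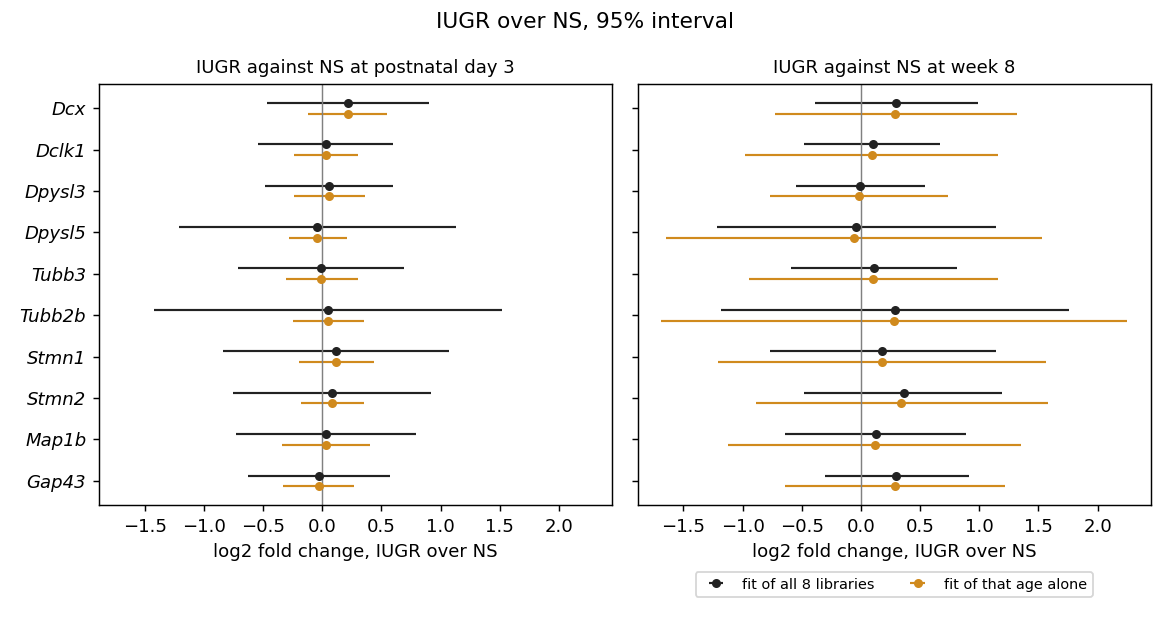
Log2 fold change of IUGR over NS (horizontal, points) with 95% intervals (lines) for each member at postnatal day 3 (left) and week 8 (right), from the fit of all 8 libraries (black) and of that age alone (orange). Every interval includes 0. The intervals of the postnatal day 3 libraries alone are the narrowest, between -0.34 and 0.55.

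The effect of IUGR at week 8 was then compared with that at postnatal day 3, which equals the difference in maturation between IUGR and NS. No member passed this test of the difference, and 0.0% of all genes did, with 0 members at an unadjusted p under 0.05. The differences ran from -0.07 ± 0.32 for Dpysl3 to 0.33 ± 0.36 for Gap43 (edgeR adjusted p = 1). The 95% interval was widest for Tubb2b, from -1.84 to 2.33. A difference in the fall of Tubb2b of 2-fold was thus within its interval.

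The week 8 libraries split by replicate number in several members, in IUGR and NS alike. Tubb2b was 3.25-fold higher in replicate 2 than in replicate 1 in IUGR and 2.39-fold in NS, and Dpysl5 was 2.31-fold and 2.24-fold higher. These were the 2 members past 1 log2 unit in both groups, as were 7.34% of tested genes with replicate 2 higher. Stmn2 was 1.76-fold and 1.51-fold higher in replicate 2. Stmn1 went the other way, with replicate 2 at 0.478 of replicate 1 in IUGR and 0.652 in NS, and so did Map1b, at 0.693 and 0.740. No member passed 1 log2 unit downward in both groups, as 6.52% of tested genes did. Dpysl3 was nearly equal between replicates, at 0.986 in IUGR and 1.01 in NS. At postnatal day 3 no member differed between replicates by more than 1.24-fold. Of the 20 family relatives 8 were past 1 log2 unit with replicate 2 higher and 1 with replicate 2 lower, and of the 15 pan-neuronal genes 9 with replicate 2 higher.

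**Figure D4:**
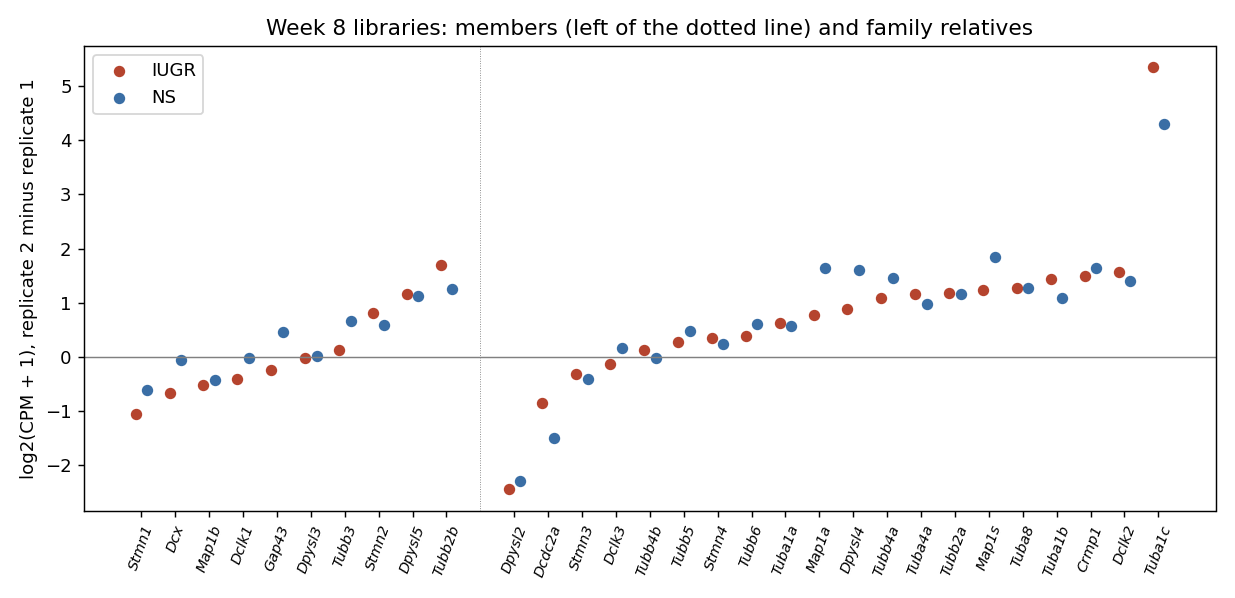
Difference of replicate 2 minus replicate 1 in log2(CPM + 1) at week 8 (vertical) for the members, left of the dotted line, and family relatives, right of it, in IUGR (red) and NS (blue). Members lie between -1.06 (Stmn1) and 1.70 (Tubb2b), both in IUGR. Gap43 and Dpysl3 are the members whose sign differs between IUGR and NS, and Dpysl3 lies at only -0.02 and 0.02. The totals include Rpph1, which the libraries numbered 2 lacked, and signs without it were not tested.

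The expression pattern of Dcx was compared with that of 10224 genes that were not members and had at least 10 CPM on average at postnatal day 3. The measure was the root mean square distance between centred log2(CPM + 1) profiles over the 8 libraries, which is set mainly by the change between ages. The closest were Nrep (0.35), Cd24a, a surface glycoprotein of young neurons (0.37), Trim67, a ubiquitin ligase (0.41), and St8sia2, which adds polysialic acid to NCAM (0.42). St8sia2 read 1.83 and 1.85 CPM at week 8 in IUGR, against 93.9 and 111 CPM at postnatal day 3. In NS, St8sia2 read 3.84 and 2.05 CPM, against 90.0 and 91.0 CPM. Among the members Dpysl3 was closer to Dcx than any of these genes, at 0.24. Dpysl5 stood at 0.86, with 30 non-member genes closer, and Dclk1 at 2.57, with 4420 closer.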

How the data were processed

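Total RNA of 8 hippocampal samples was depleted of ribosomal RNA, reverse transcribed with random primers and sequenced in paired ends, per the labels' protocols. Build mm10, featureCounts 1.6.1, HISAT2 2.1.0, cutadapt 1.16, DESeq2 1.26.0 and SAMtools 1.9 are listed, per the submitters' processing notes. Not given in the sources used here are the annotation, whether counting used strand, and what was done with multiply matching reads. The authors deposited raw counts per gene with gene lengths for each age, and every test used these counts. The authors' normalized signal tables hold the count divided by 1 factor per library and were only checked against the counts. Samples were grouped by the treatment and stage labels and numbered as in the titles.

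One edgeR model (version 4.0.16, R 4.3.3) with a mean for each of the 4 groups took the counts of all 8 libraries (TMM factors from 0.95 to 1.03, default expression filter, 15999 of 24421 genes tested, all 10 members among them). The quasi-likelihood test was used with Benjamini-Hochberg adjustment over all tested genes and an adjusted p under 0.05. The standard error is the log2 fold change divided by the square root of F. DESeq2 1.42.0, limma 3.58.1 and other alternatives are given in the closing section. The test was also run on simulated counts with the same spread at both ages and no shift shared by replicate number. The deposited week 8 libraries have a wider spread and such a shift. That run therefore does not show how the test performs on them. The members and the lists were chosen with earlier results of these data known. Of each other neuronal list the text names the 2 highest and 2 lowest changes between ages in NS among genes of at least 10 CPM, and always Tubb2a and Dclk2. The labels do not say that replicate numbers pair samples, so the test has no replicate block. A block is an alternative, and differences within a number are given as a description. Of the 5 genes that the rule names as most like Dcx, 1 is not reported here.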

Additional observations from a re-analysis of the deposited data

How the results depend on the processing

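The 5 counts of members called were the same under RLE and upper quartile scaling, with no count filter, with a mean of at least 10 counts, with DESeq2, with limma voom and without the counts of Rpph1, an alternative chosen after seeing the data. With the replicate number as a block, edgeR also called 9 members in IUGR and in NS for week 8 against postnatal day 3 and 0 in each comparison of IUGR with NS. Over all genes the block gave 3500 calls between ages in IUGR and 3009 in NS. That block assumes the same shift at both ages, which these libraries did not show. Their replicate differences correlated between IUGR and NS at 0.805 at week 8 but at -0.062 at postnatal day 3. Fitted to 1 age at a time, edgeR and DESeq2 called 0 members at either age, whether or not the block was used. Over all genes edgeR then called 0, and DESeq2 called 60 at postnatal day 3 (14 with the block) and 1 at week 8 (3 with the block). The smallest adjusted p of a member with the block on each age alone was 0.885 at postnatal day 3 and 0.999 at week 8. Over all genes, DESeq2 called 4399 genes in IUGR and 3922 in NS between ages, against 2691 and 2263 with edgeR. Without 1 library at a time the members called between ages ran from 2 to 9 in IUGR and from 2 to 9 in NS.

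Signs turned only in comparisons whose test the member had not passed in the main fit. For IUGR over NS at postnatal day 3, Dclk1 and Map1b came to 0.00 with upper quartile scaling and Tubb3 to 0.00 with the block. With both week 8 libraries numbered 1 left out, the log2 fold changes of IUGR over NS at week 8 were Dcx -0.08, Dclk1 -0.14, Tubb3 -0.15, Stmn1 -0.13, Gap43 -0.06, and the differences between ages Dcx -0.27, Dclk1 -0.15, Dpysl5 0.01, Tubb3 -0.11, Stmn1 -0.22, Gap43 0.00. With both numbered 2 left out they were Dpysl3 0.03, Tubb2b -0.02 at week 8, Tubb2b -0.06 for the difference, and 0.06 for Dclk1 between ages in IUGR. The difference of Dpysl5 was 0.01 with a mean of at least 10 counts and that of Stmn1 -0.01 with limma voom. Without 1 library at a time, log2 fold changes of IUGR over NS at postnatal day 3 ran as follows: Dclk1 -0.06 to 0.10, Dpysl3 -0.02 to 0.12, Dpysl5 -0.12 to 0.03, Tubb3 -0.13 to 0.10, Tubb2b -0.03 to 0.10, Stmn1 -0.02 to 0.24, Map1b -0.12 to 0.14, Gap43 -0.18 to 0.08. At week 8 they ran Dcx -0.10 to 0.60, Dclk1 -0.14 to 0.29, Dpysl3 -0.04 to 0.02, Dpysl5 -0.77 to 0.67, Tubb3 -0.20 to 0.51, Tubb2b -0.80 to 1.07, Stmn1 -0.45 to 0.62, Stmn2 -0.11 to 0.70, Map1b -0.17 to 0.37. The differences between ages ran Dcx -0.29 to 0.39, Dclk1 -0.14 to 0.26, Dpysl3 -0.12 to 0.01, Dpysl5 -0.74 to 0.71, Tubb3 -0.17 to 0.51, Tubb2b -0.85 to 1.03, Stmn1 -0.55 to 0.50, Stmn2 -0.20 to 0.64, Map1b -0.18 to 0.34, and Dclk1 between ages in IUGR -0.36 to 0.05. The causes were not tested. The members had at least 263 counts in each library, and each group had 2 libraries.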

Other observations

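Dpysl2, which encodes CRMP2 and is a relative of Dpysl3 and Dpysl5, was singled out after its values were seen. It read 809 and 148 CPM at week 8 in IUGR, against 1665 and 1778 CPM at postnatal day 3. In NS it read 761 and 155 CPM, against 1603 and 1809 CPM. Its week 8 libraries numbered 2 were thus below those numbered 1 in both groups, whereas Dpysl5 was higher in those numbered 2. Crmp1, also chosen after its values were seen, went the way of Dpysl5, with 96.6 and 274 CPM at week 8 in IUGR and 92.6 and 292 CPM in NS. Tuba1c had the widest split of the 20 relatives, with replicate 2 at week 8 above replicate 1 by 44.9-fold in IUGR and 21.1-fold in NS.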
